A study of Mus musculus with 136 samples.

Results

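The data described here are the transcriptomes of single mouse embryos that were recovered at E8.5 with 5 or 6 pairs of somites, from pregnancies of diabetic and of normal dams. Libraries were chosen by their labels: embryo, 5 or 6 somite pairs, and not a repeat of an earlier library. This gives 34 of the 136 libraries of the series, 17 from diabetic and 17 from normal dams. All dams and embryos were of the NOD strain, in which autoimmune diabetes arises spontaneously in part of the females, so that both groups share the genetic background. The diabetic dams had been hyperglycemic before they were mated to normoglycemic NOD males, and no insulin treatment is named in the labels. All animals were fed chow. The labels give no age for the dams, so that glycemia and any difference in age cannot be told apart. The 17 diabetic embryos came from 9 litters, of which 4 gave a single embryo. The 17 normal embryos came from 10 litters, of which 5 gave a single embryo. No litter gave more than 4. At euthanasia, maternal glucose measured 105 to 164 mg/dl in the normal pregnancies and 449 to 595 mg/dl in the diabetic ones, while for 1 further diabetic litter the label gives only a lower bound. The diabetic group held 13 embryos with 5 and 4 with 6 somite pairs, 11 males and 6 females. The normal group held 11 embryos with 5 and 6 with 6 somite pairs, 9 males and 8 females. QuantSeq 3′ libraries were prepared, which copy only the poly(A) end of a transcript, and each molecule was counted once by its unique molecular identifier (UMI). Total counts were 1862662 to 3843085 in diabetic embryos (median 2642455) and 1762872 to 5658850 in normal embryos (median 2695660).

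At this stage the neural folds are closing, the heart tube has begun to beat and somites are added at the tail. Mammalian cells make cholesterol from acetyl-CoA through the mevalonate pathway. When membrane sterol falls, the transcription factor SREBP2 is released from the endoplasmic reticulum and switches on nearly all enzymes of the pathway, so that these genes usually move as a group. Cholesterol also modifies Hedgehog proteins, which pattern the neural tube, and inherited defects of the pathway cause malformations of the face, brain and limbs. Maternal diabetes raises the rate of neural tube and heart defects in the offspring.

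The libraries were checked against their labels before the groups were compared. In all 20 embryos labelled male, counts of Ddx3y, Eif2s3y, Kdm5d and Uty together (at least 259) exceeded those of Xist (at most 35), and in all 14 labelled female Xist (at least 1000) exceeded them (at most 18). No 2 of the libraries held identical counts. Otx2 of the anterior neural plate, T of the tailbud and Nkx2-5 of the heart field were counted in all 34 embryos. The composition of the libraries differed between the groups. Protein-coding genes took 82.9% to 94.3% of the counts in diabetic embryos (median 87.9%) and 85.6% to 96.0% in normal embryos (median 93.3%), so that the groups overlapped. Gm42418, a gene model that overlaps an rRNA repeat, took 2.73% to 10.5% of counts in diabetic embryos (median 6.55%) and 0.994% to 9.14% in normal embryos (median 3.11%). By litter means, the protein-coding share was lower by 3.14 percentage points and the share of Gm42418 higher by 2.39 percentage points in diabetic litters (two-sided exact permutation tests over 92378 splits of 19 litters, p = 0.0494 and 0.0429). Genes of snRNA, snoRNA, scaRNA and miscellaneous structured RNA took a median of 0.116% of counts in diabetic and 0.0635% in normal embryos (exact permutation p = 5.7e-04 over litters).

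The difference in the protein-coding share went in opposite directions in the libraries of different title numbers. The library titles carry the number 23, 24 or 28, whose meaning the labels do not give. Among embryos with number 28 (13 diabetic from 6 litters, 12 normal from 7), the protein-coding share had a median of 87.2% in diabetic and 93.9% in normal embryos. Among those with number 23 or 24 (4 diabetic from 3 litters, 5 normal from 3), it was 92.9% in diabetic and 87.5% in normal embryos. The share of small structured RNA was higher in diabetic embryos in both sets, with medians of 0.102% against 0.0617% with number 28 and 0.173% against 0.0786% with number 23 or 24. The plot of library composition shows both sets. For many named genes, log2 fold changes are given also within each set of title numbers. For part of them they are given also at common protein-coding share. This means the 13 diabetic and 12 normal embryos whose share lay in the range covered by both groups, 85.64% to 94.33%. Whether composition plays a part in a given change was not tested.

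**Figure D1:**
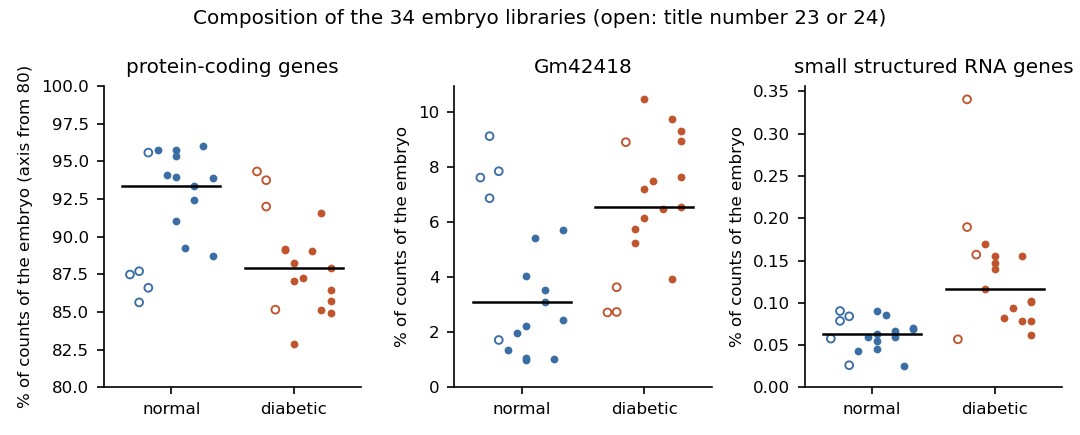
Share of the counts of each embryo, in percent, that fell on protein-coding genes (left; axis from 80%), on Gm42418 (middle) and on small structured RNA genes (right), for normal (blue) and diabetic (orange) pregnancies. Each point is 1 embryo, points of a litter stand in 1 column, open points carry title number 23 or 24, and bars are group medians (93.3% and 87.9% on the left).

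Maternal diabetes was associated with modest changes of single genes. After the filter on low counts, 11004 genes were tested with edgeR's quasi-likelihood test, of which 10426 are protein-coding, and 161 were called at an adjusted p under 0.05 (1.46%). Among protein-coding genes, 47 were higher in diabetic embryos (0.451%) and 92 were lower (0.882%). Fold changes of the called genes were small: the median was 0.59 on the log2 scale for the genes that were higher and -0.41 for those that were lower, and 7 genes passed 1, all higher. The 2 groups overlapped for each of the 139 called protein-coding genes. The test takes littermates as independent, while the dam is what was diabetic or normal. With the litter as a random block in limma, 4 genes kept an adjusted p under 0.05 (0.0364%): Sqle and Cyp51, both lower, and Prcc and Zkscan3, both higher (adjusted p = 0.0367 for each). With counts summed per litter edgeR called 0, with 1170 genes at an unadjusted p under 0.05 against 2313 for single embryos. DESeq2, fitted to 27806 genes of the single embryos without the filter on low counts, called 502. When single genes were tested by exact permutation of litter means, 46 of the 47 higher and 91 of the 92 lower genes had an unadjusted p under 0.05, which describes genes already chosen by the same embryos. The number of calls depended on single litters. It was lower without N28M06 (4), D28M53 (40), N28M03 (50), N28M22 (55), D28M23 (63), D24M22 (79), N28M05 (86), N28M30 (86), N28M25 (90) or D28M02 (94), and higher without D28M37 (323), N23M31 (560) or N24M21 (675), where D and N in a litter name stand for a diabetic and a normal dam. Of the 38 called genes named here or in the plots, all but Sqle, Cyp51 and Prcc lost their call without N28M06. In embryos with title number 28 alone, 1753 of 10960 genes were called (16%), among them 44 of the 47 and 88 of the 92, and with number 23 or 24 alone 8 genes were called, among them 1 of the 47 and 0 of the 92. The medians of the 47 and the 92 were 0.69 and -0.49 with number 28, against 0.24 and -0.15 with number 23 or 24. Both sets are parts of the embryos that chose these genes, and most of these embryos carry number 28. Keeping calls with number 28 is therefore partly built into the choice. Among the 25 embryos of common protein-coding share edgeR called 0 genes, while 594 had an unadjusted p under 0.05, and the median of the 92 lower genes went to -0.30 and that of the 47 higher genes to 0.44.

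The list of sterol synthesis held the most called genes of the lists examined, all lower in diabetic embryos. Of the 21 genes reported on the list, 20 were tested, and all 20 had log2 fold changes below 0, from -0.60 (Msmo1) to -0.12 (Ebp), with a median of -0.32; over all genes tested the median was 0.0038 and 50.7% lay above 0. Called lower were 5 of the 20, against 0.882% of protein-coding genes, and none was called higher; 16 had an unadjusted p under 0.05, as 21% of all genes tested had. The list was compiled with earlier results of these data known, so that its count is a description. Idi1, the remaining gene, had too few counts to be tested.

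Most promoters of these genes hold the CCAAT box, the binding letters of NF-Y, a factor known to act beside SREBP2. The windows shown are those of the called genes Cyp51, Msmo1 and Mvd, whose promoters are in the RefSeq table used here (GRCm38.p6), and of Hmgcs1, the single gene of the list whose window holds the sterol regulatory letters TCACNCCAC; capitals mark the matched letters, on the strand of the gene, 5′ to 3′.
Cyp51: ctgtccgccaCCAATctggtcctgagatcc
Msmo1: gtggggcggaCCAATtacgacaggcgagcc
Mvd: ggccagcgggCCAATcatatggcagcgcgt
Hmgcs1: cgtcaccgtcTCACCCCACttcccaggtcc
They lie at chr5:4104707-4104736 (minus strand), chr8:64733614-64733643 (minus strand), chr8:122443430-122443459 (minus strand) and chr13:119690204-119690233 (plus strand). The capitals begin 29, 55, 27 and 137 bases before the start site given in RefSeq. The Cyp51 stretch lies inside the gene as GENCODE M21 places it, where the start site differs. On either strand, CCAAT was found in 16 of 20 promoter windows of 17 list genes (80.0%), against 12289 of 32851 windows of all genes (37.4%). TCACNCCAC was found in 1 of the 20 (5.0%) and in 408 of all (1.24%). Each window runs from 250 bases before to 50 bases after a start site. A match describes letters and is not a measured binding site. Not in the table were Fdft1, Fdps, Sqle and Stard4.

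Gene positions are given in GRCm38, as in GENCODE M21. Sqle encodes squalene epoxidase, which commits squalene to the sterol branch. Sqle (ENSMUSG00000022351; chr15:59315077-59331192) ranged from 176 to 278 normalized counts in normal embryos (median 226) and from 125 to 228 in diabetic embryos (median 155). Here 13 of 17 diabetic embryos lay below every normal embryo. The log2 fold change was -0.48 (standard error 0.08, adjusted p = 0.00268 in edgeR), with 8 of 9 litters below the normal median (exact permutation p = 0.00113). Cyp51, the lanosterol demethylase, acts further down that branch. Cyp51 (ENSMUSG00000001467; chr5:4081145-4104746) ranged from 162 to 302 normalized counts in normal embryos (median 209) and from 103 to 198 in diabetic embryos (median 149). Of 17 diabetic embryos, 11 were below the normal range and all 17 were below the normal median. The log2 fold change was -0.59 (standard error 0.10, adjusted p = 0.00268 in edgeR), with all 9 diabetic litters below the normal median (exact permutation p = 0.00121). Both genes were called in each of the 19 fits that left out a litter.

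Msmo1, which removes methyl groups downstream of Cyp51, ranged from 104 to 272 normalized counts in normal embryos (median 166) and from 71 to 188 in diabetic embryos (median 109). Of 17 diabetic embryos, 7 were below the normal range, and the log2 fold change was -0.60 (standard error 0.14, adjusted p = 0.0272 in edgeR). By litter means, 7 of 9 diabetic litters lay below the normal median and 2 above it (exact permutation p = 0.0425). Mvd, the last enzyme before isopentenyl diphosphate, had a log2 fold change of -0.45 (standard error 0.11, adjusted p = 0.0357 in edgeR) with 1 diabetic embryo below the normal range. Stard4, a carrier of cholesterol inside the cell, had -0.34 (standard error 0.09, adjusted p = 0.0460 in edgeR) with 5 such embryos. For Mvd and Stard4, as for Cyp51, all 9 diabetic litters lay below the normal median (exact permutation p = 0.0198 and 0.00116). The 3′ end of Cyp51 overlaps Akap9 on the opposite strand, as does that of Mvd with the gene model Gm20388.

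The genes that were not called spanned the whole pathway. From acetyl-CoA to farnesyl diphosphate, Acat2 had a log2 fold change of -0.23, Hmgcs1 -0.31, Mvk -0.26, Pmvk -0.16 and Fdps -0.39. From farnesyl diphosphate to cholesterol, Fdft1 had -0.36, Lss -0.32, Tm7sf2 -0.26, Nsdhl -0.36, Hsd17b7 -0.23, Ebp -0.12, Sc5d -0.20 and Dhcr7 -0.32. The control genes Srebf2, which encodes SREBP2, and Insig1, which retains it, had -0.25 and -0.30. Adjusted p of these 15 genes in edgeR ran from 0.0844 (Lss) to 0.605 (Ebp).

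The median of the sterol genes lay below 0 in both sets of title numbers, which are parts of the same embryos. The part of library composition in these genes was not tested. With title number 28, the median of the list was -0.34 with 20 of 20 genes below 0 and 8 called lower. With number 23 or 24, it was -0.24 with 17 of 20 below 0 and 0 called. That set held 4 diabetic against 5 normal embryos, from 3 and 3 litters. Log2 fold changes in the sets were -0.60 and -0.62 for Cyp51, -0.50 and -0.44 for Sqle, -0.62 and -0.61 for Msmo1, and -0.55 and -0.12 for Mvd. In the embryos of common protein-coding share, the median was -0.33 with 20 of 20 below 0, none called. With the protein-coding share as a covariate the median was -0.29, again with 20 of 20 below 0, and Cyp51 alone was called (log2 fold change -0.57, adjusted p = 0.0443 in edgeR). The number called went from 5 to 2 without N28M06, D28M53 or N28M22 and to 3 without D24M22, D28M02, D28M23, N28M03 or N28M05, while the median lay between -0.34 and -0.27 whichever litter was left out.

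**Figure D2:**
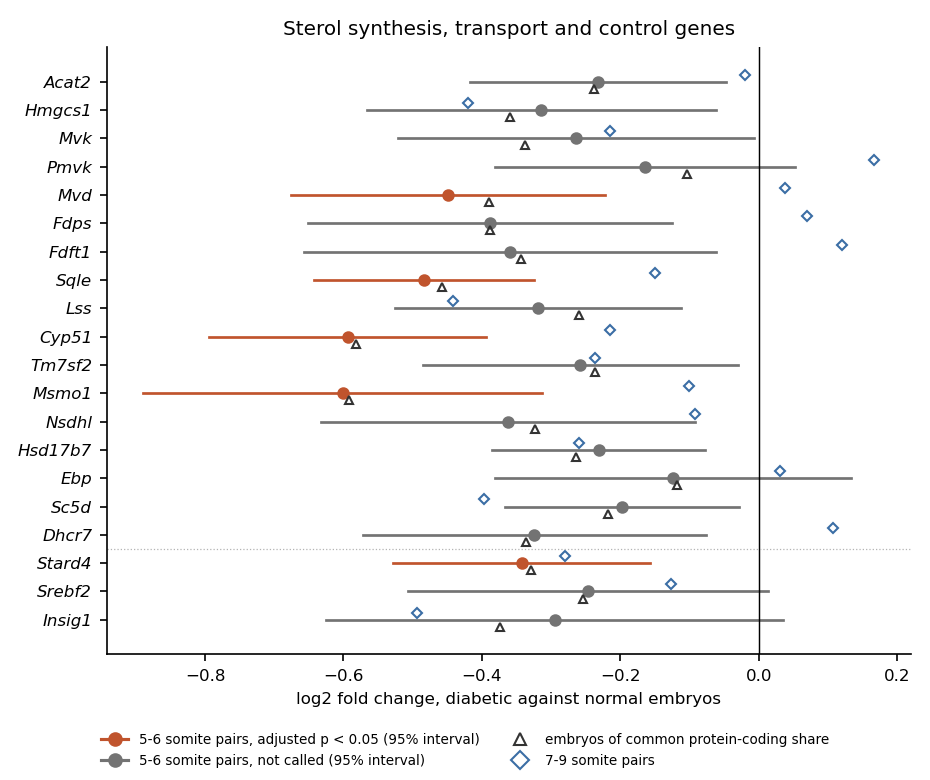
Log2 fold changes (diabetic against normal embryos) of the 20 tested genes of sterol synthesis, in pathway order from Acat2 to Dhcr7, with transport and control genes under the dotted line. Circles with bars are the estimate and 95% confidence interval at 5–6 somite pairs, orange where called; triangles are the embryos of common protein-coding share, diamonds the embryos with 7–9 somite pairs. All circles lie left of 0, from -0.60 (Msmo1) to -0.12 (Ebp).

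The same genes were compared in other samples. In the 32 embryos with 7–9 somite pairs (16 diabetic, 16 normal; 10 of the 19 litters also gave embryos of that stage), 14 of the 20 genes were below 0, the median was -0.14, and 3 were called lower: Hmgcs1 (-0.42), Lss (-0.44) and Sc5d (-0.40), where 8.38% of all genes tested were called in either direction. None of these was called at 5–6 somite pairs. Calls at that stage come from a fit of its 34 embryos alone, while the later values come from a fit over both stages. Stard4 had -0.28 (adjusted p = 0.0716 in edgeR) and Cyp51 -0.22 (0.176). In the yolk sacs of the same 34 concepti, 9 of 20 were below 0 and the median was 0.02, with 0 called. The yolk sac of the conceptus D28M27C is labelled male while its embryo is labelled female, so that this pairing is uncertain. Of all 11677 genes in the fit over embryos and yolk sacs, 0 were called in yolk sacs (0%) and 0 had a difference between the tissues (0%) at an adjusted p under 0.05 in edgeR, with 895 at an unadjusted p under 0.05 for that difference and 0 called by DESeq2.

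Several genes of fatty acid synthesis answer to the related factor SREBP1. Of 23 tested genes of fatty acid synthesis and oxidation, 1 was called lower, against 0.882% of protein-coding genes, and the median was -0.10. This was Scd1, the stearoyl-CoA desaturase. Scd1 (ENSMUSG00000037071; chr19:44394455-44407879) ranged from 67.7 to 174 normalized counts in normal embryos (median 115) and from 66.2 to 110.4 in diabetic embryos (median 90.8), so that every diabetic embryo lay below the normal median, and its log2 fold change was -0.39 (standard error 0.10, adjusted p = 0.0377 in edgeR). The highest values of the list were 0.58 for Etfdh and 0.40 for Hadhb, genes of beta-oxidation that were not called. With number 28, with number 23 or 24 and at common protein-coding share, in this order, log2 fold changes were -0.40, -0.36 and -0.45 for Scd1.

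Trp53 and Cdkn1a were higher in diabetic embryos. Trp53 encodes p53, whose activity is raised by DNA damage and other stress, and Cdkn1a encodes the inhibitor of cyclin-dependent kinases through which p53 halts the cell cycle. Cdkn1a (ENSMUSG00000023067; chr17:29090976-29100727) ranged from 13.3 to 68.2 normalized counts in normal embryos (median 27.2) and from 27 to 74.8 in diabetic embryos (median 50.8), with 2 of 17 diabetic embryos above every normal embryo and 16 above the normal median. Its log2 fold change was 0.76 (standard error 0.18, adjusted p = 0.0272 in edgeR). Trp53 (ENSMUSG00000059552; chr11:69580359-69591873) ranged from 32.1 to 148 normalized counts in normal embryos (median 50.2) and from 56.4 to 203 in diabetic embryos (median 93.8), with all 17 diabetic embryos above the normal median. Its log2 fold change was 0.68 (standard error 0.18, adjusted p = 0.0462 in edgeR). For both, all 9 diabetic litters exceeded the normal litters' median (exact permutation p = 0.00352 and 0.0137).

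None of the other tested targets of p53 was called. Of 21 tested genes of the list, these 2 were called higher (0.451% of protein-coding genes were) and none lower, and the median was 0.11. Mdm2, the ligase that degrades p53 and is its direct target, had a log2 fold change of -0.33, Bbc3 of -0.37 and Btg2 of -0.47, while Ccng1 had 0.19, Phlda3 0.28 and Eda2r 0.30; none of these was called. Log2 fold changes with title number 28 were 1.11 for Cdkn1a and 0.96 for Trp53, against 0.12 and 0.35 with number 23 or 24 and 0.44 and 0.50 at common protein-coding share. Composition moved with these genes, and its part in them was not tested. Trp53 lost its call in 13 of the 19 fits without a litter and Cdkn1a in 6, for both without D28M23, D28M53, N28M03, N28M06, N28M22 or N28M30.

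**Figure D3:**
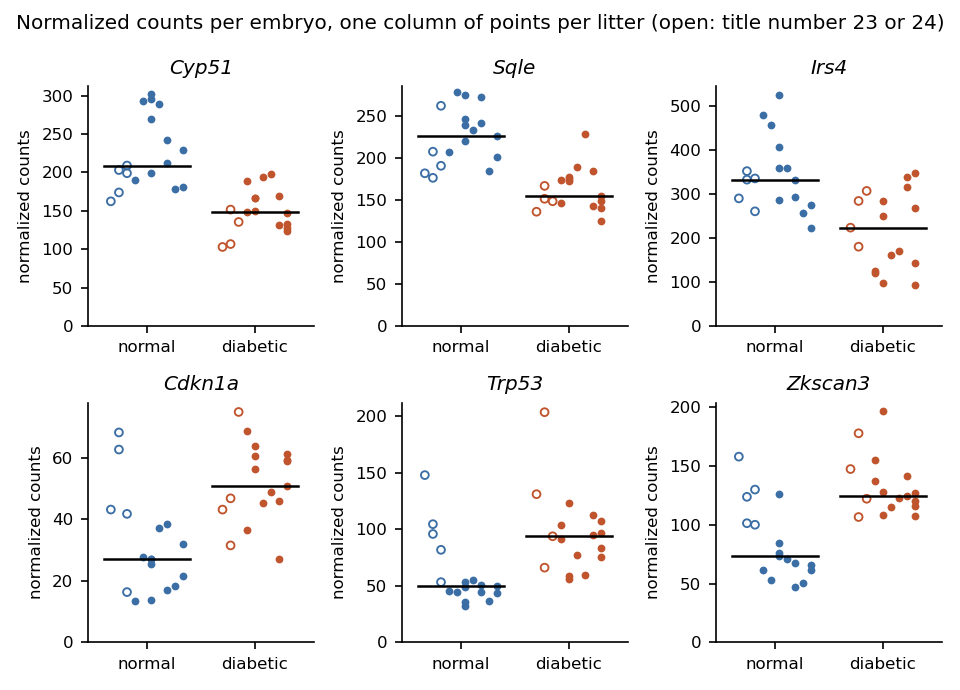
Normalized counts (counts divided by size factors) of 6 named genes in each of the 17 normal (blue) and 17 diabetic (orange) embryos. Points of a litter stand in 1 column, open points carry title number 23 or 24, and bars are medians, such as 209 and 149 for Cyp51 and 27.2 and 50.8 for Cdkn1a; the groups overlap in every panel.

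Lists of other stress responses held no called gene. This was so for the unfolded protein response (15 tested, median -0.01), the integrated stress response (19 tested, median 0.07), antioxidant and glutathione genes (25 tested, median -0.03), hypoxia targets (21 tested, median 0.02), chaperones (19 tested, median -0.11) and immediate early genes (15 tested, median -0.22). Hspa5, the main chaperone of the endoplasmic reticulum, had a log2 fold change of -0.30 (adjusted p = 0.065 in edgeR), and Gpx4, which removes lipid peroxides, had 0.54 (0.22). Rbm3, an RNA-binding protein induced by cold, was higher. Rbm3 (ENSMUSG00000031167; chrX:8138975-8145880) ranged from 24.4 to 72.7 normalized counts in normal embryos (median 40.6) and from 48.8 to 94.8 in diabetic embryos (median 62.8), with all 17 diabetic embryos above the normal median and a log2 fold change of 0.65 (standard error 0.13, adjusted p = 0.0142 in edgeR), while its relative Cirbp had -0.26 and was not called. Rbm3 was 0.87 with title number 28 and 0.16 with number 23 or 24. The median of Rbm3 and Cirbp was 0.20 in all embryos and 0.0047 at common protein-coding share.

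Of 22 tested genes of glucose uptake and glycolysis, 1 was called, the insulin-responsive transporter Slc2a4, which was lower, as 0.882% of protein-coding genes were. It ranged from 9.24 to 33.3 normalized counts in normal embryos (median 23.6) and from 5.92 to 26.8 in diabetic embryos (median 11.4), with all 9 diabetic litters below the normal median. The median of the list was -0.04, and the highest values, 0.63 for Pgk1 and 0.57 for Eno1, were not called. Txnip and Arrdc4, arrestins whose transcription follows intracellular glucose through the MondoA-Mlx dimer, had log2 fold changes of 0.42 and 0.61 (adjusted p = 0.52 and 0.10 in edgeR). Mlx, the shared partner in that dimer, was higher: Mlx (ENSMUSG00000017801) ranged from 20.7 to 50.7 normalized counts in normal embryos (median 32.8) and from 29 to 75.4 in diabetic embryos (median 47.9), with a log2 fold change of 0.52 (standard error 0.14, adjusted p = 0.0460 in edgeR); its 3′ end overlaps Psmc3ip on the opposite strand. In all, 6 of the 7 tested genes of that list were above 0 and 1 was called higher, as 0.451% of protein-coding genes were, with a median of 0.41, which was 0.38 and 0.42 in the sets of title numbers. With number 28, with number 23 or 24 and at common protein-coding share, in this order, log2 fold changes were -0.86, -0.29 and -0.71 for Slc2a4 and 0.60, 0.42 and 0.46 for Mlx.

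Irs4, an adaptor of the insulin and IGF receptors, was lower. Irs4 (ENSMUSG00000054667; chrX:141710998-141725263) ranged from 223 to 525 normalized counts in normal embryos (median 333) and from 92.8 to 347 in diabetic embryos (median 224), with 8 of 17 diabetic embryos below every normal embryo. The log2 fold change was -0.65 (standard error 0.16, adjusted p = 0.0331 in edgeR) and 8 of 9 litters were below the normal median (exact permutation p = 0.00107). The growth kinase Mtor, picked out after its values were seen, had -0.39 (standard error 0.10, adjusted p = 0.0379 in edgeR), with all 17 diabetic embryos below the normal median. With number 28, with number 23 or 24 and at common protein-coding share, in this order, log2 fold changes were -0.75, -0.34 and -0.54 for Irs4 and -0.47, -0.15 and -0.24 for Mtor.

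The genes with the largest decrease included Unc45b and Cth. Unc45b, a chaperone of striated muscle myosin, had -0.58 (standard error 0.16, adjusted p = 0.0481 in edgeR). Cth, the cystathionine lyase that makes cysteine, had -0.60 (standard error 0.14, adjusted p = 0.0272 in edgeR) and was also called in embryos with 7–9 somite pairs (-0.63, adjusted p = 0.0183). The dehydrogenase Dhrs4 had -0.75 (standard error 0.15, adjusted p = 0.0142 in edgeR), with all 17 diabetic embryos below the normal median. Isoc2a had -0.62 (standard error 0.14, adjusted p = 0.0188 in edgeR), Slc35f1 -0.71 (standard error 0.15, adjusted p = 0.0184 in edgeR) and Gdpd2, a glycerophosphodiester phosphodiesterase, -0.72 (standard error 0.17, adjusted p = 0.0281 in edgeR). Isoc2a, Dhrs4, Cth, Slc35f1 and Unc45b were below the normal median in all 9 diabetic litters. The 3′ ends of Cth, Gdpd2 and Unc45b overlap other gene models. Hhex, a homeobox factor of anterior endoderm and blood vessel precursors, was picked out after its values were seen and had -0.58 (standard error 0.13, adjusted p = 0.0235 in edgeR), with 11 of 17 diabetic embryos below every normal embryo. Endothelial markers summed to a median of 469 CPM in diabetic and 558 in normal embryos, and their part in Hhex was not tested. With number 28, with number 23 or 24 and at common protein-coding share, in this order, log2 fold changes were -0.51, -0.77 and -0.47 for Unc45b, -0.72, -0.26 and -0.56 for Cth, -0.93, -0.19 and -0.66 for Dhrs4, -0.73, -0.27 and -0.53 for Isoc2a, -0.71, -0.74 and -0.77 for Slc35f1, -0.80, -0.44 and -0.57 for Gdpd2 and -0.56, -0.61 and -0.53 for Hhex.

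Among the genes that were higher, Prcc and Zkscan3 kept their call with litter as a random block. Prcc (ENSMUSG00000004895; chr3:87858903-87885608) was counted at low numbers and ranged from 3.46 to 15.8 normalized counts in normal embryos (median 10.4) and from 10.2 to 29.6 in diabetic embryos (median 19.7), with 14 of 17 diabetic embryos above every normal embryo and a log2 fold change of 1.04 (standard error 0.18, adjusted p = 0.00391 in edgeR). Zkscan3 encodes a zinc finger repressor of autophagy genes. Zkscan3 (ENSMUSG00000021327; chr13:21387003-21402755) ranged from 47.4 to 158 normalized counts in normal embryos (median 74) and from 107 to 197 in diabetic embryos (median 125), with all 17 diabetic embryos above the normal median and a log2 fold change of 0.63 (standard error 0.13, adjusted p = 0.0174 in edgeR). For both genes all 9 diabetic litters were above the normal median (exact permutation p = 5.2e-04 and 0.00180), and with number 23 or 24 alone the log2 fold changes were 0.44 and 0.17, against 1.28 and 0.91 with number 28 and 0.77 and 0.53 at common protein-coding share.

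Signalling genes among those with the largest increase were Spry4, which restrains FGF receptors, with 1.01 (standard error 0.28, adjusted p = 0.0495 in edgeR), the ephrin receptor Epha5 with 0.78 (standard error 0.20, adjusted p = 0.0377 in edgeR), and the endothelin receptor Ednra, needed by cranial neural crest, with 0.67 (standard error 0.16, adjusted p = 0.0298 in edgeR) and a 3′ end that overlaps a model on the opposite strand. Spry4 turned to -0.49 with number 23 or 24, where 1.69 was found with number 28 and 0.59 at common protein-coding share. It kept its call in 6 of the 19 fits without a litter. C2cd5, which acts in the traffic of glucose transporter vesicles, had 0.65 (standard error 0.17, adjusted p = 0.0452 in edgeR), and Wdr92, a cofactor in dynein assembly, 0.83 (standard error 0.21, adjusted p = 0.0357 in edgeR). Picked out after their values were seen were Kitl, the ligand of the Kit receptor, with 0.46 (standard error 0.10, adjusted p = 0.0212 in edgeR), the taurine transporter Slc6a6 with 0.60 (standard error 0.12, adjusted p = 0.0142 in edgeR), and Skp2, which marks cell cycle inhibitors for degradation, with 0.37 (standard error 0.09, adjusted p = 0.0379 in edgeR); all 17 diabetic embryos exceeded the normal median for Slc6a6, 16 for Kitl and 15 for Skp2. With number 28, with number 23 or 24 and at common protein-coding share, in this order, log2 fold changes were 1.02, 0.21 and 0.66 for Epha5, 0.87, 0.24 and 0.61 for Ednra, 0.80, 0.42 and 0.60 for C2cd5, 1.10, 0.45 and 0.72 for Wdr92, 0.64, 0.08 and 0.33 for Kitl, 0.83, 0.17 and 0.39 for Slc6a6 and 0.41, 0.34 and 0.24 for Skp2.

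For the 4 named genes with the highest fold changes, the source of the reads is uncertain. Hist1h2bj (1.32 ± 0.34, SE) and Hist1h4n (1.32 ± 0.28) are replication-dependent histone genes, whose main transcripts lack a poly(A) tail and whose copies are near identical, and Hist1h2bj also overlaps Gm44486. Gm38393 (1.28 ± 0.29) holds Snord64 and Snord107 and overlaps Snhg14 on its own strand at the 3′ end. Tmem245 (1.24 ± 0.31) holds Mir32 and 2 further small RNA genes. Adjusted p in edgeR was 0.0398, 0.0142, 0.0212 and 0.0358 in this order. Tmem245 ranged from 122 to 601 normalized counts in normal embryos (median 261) and from 139.5 to 2959.7 in diabetic embryos (median 561), and without the litter D24M15 its log2 fold change was 0.84, against 2.9 with number 23 or 24 and 0.60 with number 28. Hist1h2bj was 0.93 without the same litter. With number 28, with number 23 or 24 and at common protein-coding share, in this order, log2 fold changes were 0.78, 2.50 and 1.37 for Hist1h2bj, 1.59, 0.77 and 0.91 for Hist1h4n and 1.84, 0.34 and 0.78 for Gm38393. The share of small structured RNA moved with the groups, as given above, and its part in these genes was not tested.

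Of 38 tested genes of the cell cycle and DNA replication, 1 was called, Cdt1, which licenses replication origins and was lower, as 0.882% of protein-coding genes were. It ranged from 537 to 976 normalized counts in normal embryos (median 777) and from 447 to 730.0 in diabetic embryos (median 600.3), with all 17 diabetic embryos below the normal median and a log2 fold change of -0.31 (standard error 0.08, adjusted p = 0.0482 in edgeR), which was -0.42 with number 28 and 0.03 with number 23 or 24. Its 3′ end overlaps the gene model Gm20388 on the same strand. Foxm1, a factor of mitotic genes picked out after its values were seen, had -0.38 (standard error 0.10, adjusted p = 0.0398 in edgeR), with its 3′ end inside Tex52, and it was -0.48 with number 28, -0.05 with number 23 or 24 and -0.24 at common protein-coding share. Of 23 tested genes of folate, serine and purine synthesis, Mat2a, which makes the methyl donor S-adenosylmethionine, was called higher, as 0.451% of protein-coding genes were. Mat2a (ENSMUSG00000053907; chr6:72432799-72439558) ranged from 853 to 1341 normalized counts in normal embryos (median 1065) and from 1153 to 1661 in diabetic embryos (median 1328), with all 17 diabetic embryos above the normal median and 8 above every normal embryo. Its log2 fold change was 0.31 (standard error 0.06, adjusted p = 0.0142 in edgeR), 0.29 and 0.36 in the sets of title numbers. Of 83 tested nuclear genes of the respiratory chain, Ndufaf8, an assembly factor of complex I, was called lower at -0.53 (standard error 0.13, adjusted p = 0.0314 in edgeR), beside the same 0.882%, and it was -0.71 with number 28 and 0.07 with number 23 or 24. Of 78 tested ribosomal protein genes none was called, with a median of -0.00095.

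No gene was called on the lists for patterning. Counts at an unadjusted p under 0.05 stand beside 21% of all genes tested, in either direction. For a list of genes linked to neural tube closure in mice, 34 genes were tested with a median of 0.04, and 4 were above and 2 below 0 at an unadjusted p under 0.05. Pax3, a gene of the dorsal neural tube, ranged from 57.7 to 165 normalized counts in normal embryos (median 124) and from 83.2 to 216 in diabetic embryos (median 134), and its log2 fold change was 0.21 (adjusted p = 0.308 in edgeR). Twist1 of the cranial mesenchyme had 0.60 (adjusted p = 0.065) and Sall2 had -0.37 (0.064). For regional factors of the brain, 27 genes were tested with a median of -0.14, and 1 were above and 6 below 0 at an unadjusted p under 0.05. The lowest was Rax of the eye field at -0.81 (adjusted p = 0.065), followed by Lhx2 at -0.52 and Pax6 at -0.49, and Gbx2 of the hindbrain boundary was highest at 0.40. For the heart tube and its muscle, 33 genes were tested with a median of -0.07, and 2 were above and 1 below 0 at an unadjusted p under 0.05. For presomitic mesoderm and somites, 18 genes were tested with a median of -0.09, and 1 were above and 1 below 0 at an unadjusted p under 0.05. For tailbud and axis extension, 20 genes were tested with a median of 0.26, and 7 were above and 1 below 0 at an unadjusted p under 0.05, with Cdx4 highest at 0.63 (adjusted p = 0.086). For the neural crest, 19 genes were tested with a median of 0.02, and 3 were above and 1 below 0 at an unadjusted p under 0.05. For Hox genes, 25 genes were tested with a median of 0.09, and 3 were above and 0 below 0 at an unadjusted p under 0.05. The median standard error over the protein-coding genes tested was 0.12 on the log2 scale. The smallest called change of a protein-coding gene was 0.23. On these lists larger values were not called, such as -0.81 for Rax. An absent call therefore does not exclude changes of that size.

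Among signalling pathways, 0 genes were called for Wnt (33 tested, median 0.17; Axin2, a feedback target, at 0.59), for BMP, TGF-beta and Nodal (26 tested, median 0.02; Lefty2 lowest at -1.22), for Hedgehog (15 tested, median 0.03; its target Gli1 at -0.34) and for retinoic acid (15 tested, median -0.02). For FGF, of 17 tested Spry4 was the 1 called, higher as 0.451% of protein-coding genes were. Imprinted genes (20 tested, median 0.07), matrix genes (23 tested, median -0.06), and epithelial adhesion genes and keratins (16 tested, median 0.01) held none. The mRNAs of the mitochondrial genome were tested for 7 of 13, with a median of -0.03 and none called.

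**Figure D4:**
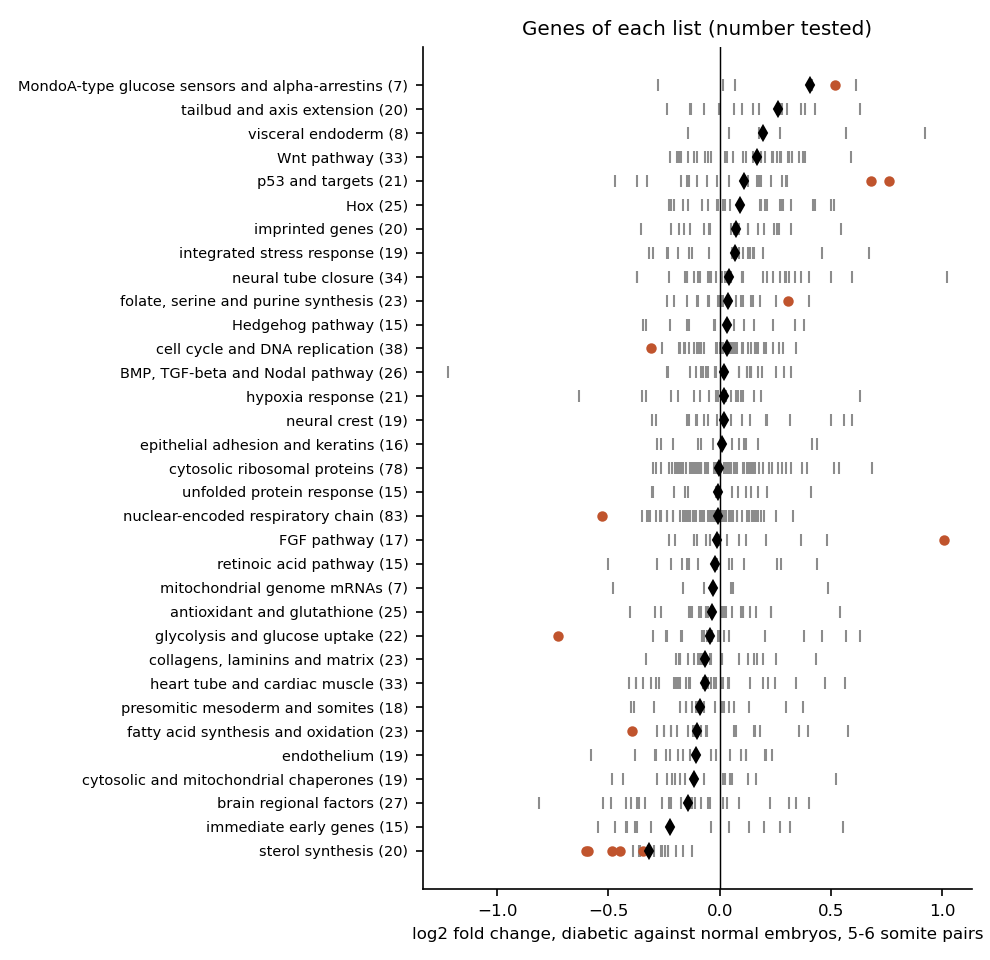
Log2 fold changes (diabetic against normal embryos, 5–6 somite pairs) of the tested genes of each list with at least 7 tested genes. Ticks are genes that were not called, orange circles called genes, and black diamonds list medians; sterol synthesis, at the bottom, has a median of -0.32 and 5 called genes, and no other list has more than 2.

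Markers of cell types that could be carried along or vary in amount were summed per embryo. Visceral endoderm markers (10 genes, 8 tested, 0 called) summed to 71.1 to 782 CPM, which are counts scaled to a common library total, in diabetic and 141 to 514 in normal embryos, with medians of 231 and 305. Of the 8 tested, 7 had log2 fold changes above 0, with a median of 0.19. In the sets of title numbers the median was 0.44 with number 28, where 1 was called higher, and -1.03 with number 23 or 24, where 8 of 8 were below 0. Primitive erythroid markers (8 genes, 1 tested) summed to 2.85 to 81.5 and 6.55 to 36.4. Trophoblast markers (10 genes, 2 tested) summed to 29.7 to 85.4 and 25.3 to 80.1, with Prl2c2 and Prl3d1 at 0 in all 34 embryos. Markers of decidua and leukocytes (8 genes, 3 tested) summed to 10.3 to 88.8 and 7.79 to 23.9. Endothelial markers (24 genes, 19 tested, median -0.11) summed to 314 to 699 and 434 to 730.0, with medians of 469 and 558; Egfl7 was lowest at -0.58 (adjusted p = 0.051 in edgeR), and none was called. All ranges overlapped between the groups. In whole embryos, fewer cells of a type and less RNA per cell cannot be told apart.

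The genes called at 5–6 somite pairs were followed at 7–9. The later diabetic embryos came from 6 litters, with 7 of 16 from the litter D24M15, and the later normal ones from 7 litters with at most 4 from 1. Title number 23 or 24 was carried by 8 of the 16 later diabetic and 3 of the 16 later normal embryos. The protein-coding share of the later embryos is not given here, and its part in the differences between stages was not tested. In the fit over embryos of both stages, 8.38% of the 11304 genes tested were called in the later embryos in either direction. With litter as a random block, 232 were called. Calls at 5–6 somite pairs come from a fit of those embryos alone, so the shares called at the 2 stages are not directly comparable. Of the 47 higher genes, 20 had the same sign in the later embryos and 5 were called in that direction, and of the 92 lower genes, 48 had the same sign, 2 were called lower and 2 higher. The medians there were -0.06 and -0.0051. Among the 5 called higher at both stages were Hist1h2bj, Hist1h4n and Tmem245, at 1.79, 1.11 and 2.29 in the later embryos. For these genes the source of the reads is uncertain, as given above. The difference between the stages was itself called for 984 of 11304 genes (8.7%), and for 28 of the 47 and 43 of the 92; these were chosen for a change at the earlier stage, so a larger share is built into the choice. In limma with the litter as a random effect, the stage difference was called for 1298 genes, and with the title number as a factor in edgeR for 2114, both chosen after seeing the data. The title number entered as a shift shared by all groups, which cannot take up a change with diabetes that differs by title number. Leaving out 1 litter gave 370 to 1480 genes, with the number lower by over 1.5 times without D28M23 (370), D28M53 (377), N28M06 (388), D28M31 (453), N28M22 (514), N28M25 (619), N28M30 (629) or N28M05 (647) and higher without D28M37 (1480). Trp53 went from 0.68 to -0.49 (difference -1.16 ± 0.27, SE; adjusted p = 0.00841 in edgeR) and Spry4 from 1.01 to -0.40 (difference -1.40 ± 0.35; adjusted p = 0.0119). Sqle went from -0.48 to -0.15 (difference 0.34 ± 0.11; adjusted p = 0.0447). The call of this difference was kept for Trp53 whichever litter was left out, was lost for Spry4 without D28M53 (adjusted p = 0.0586), and was lost for Sqle in 14 of the 22 such fits (adjusted p up to 0.143). For Cyp51, Msmo1, Cdkn1a and Cth the stage difference was not called (adjusted p = 0.0777, 0.104, 0.275 and 0.966), which does not show that the stages act alike. In yolk sacs of the same concepti, 38 of 46 higher and 74 of 92 lower genes had the same sign as in embryos, with medians of 0.13 and -0.15 and 0 called; embryo and yolk sac share a conceptus and a dam. The share of all genes tested that had the same sign is not given. These counts therefore do not show agreement beyond that of other genes.

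**Figure D5:**
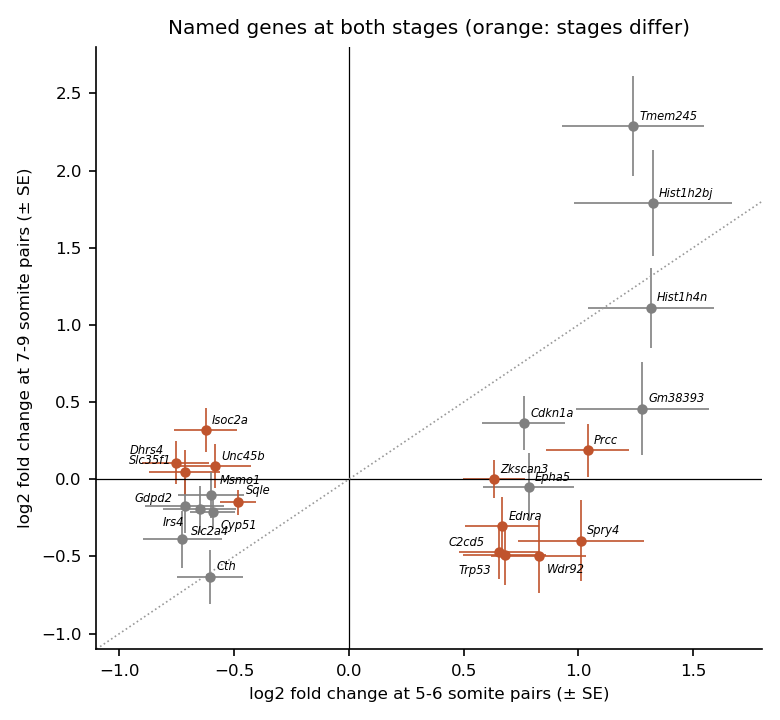
Log2 fold changes, diabetic against normal, of the named genes with the largest changes or a call under the litter block at 5–6 somite pairs (x axis) and at 7–9 somite pairs (y axis), with standard errors. Orange marks a called difference between the stages, as for Trp53 (0.68 and -0.49), and the dotted line marks equal values.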

How the data were processed

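RNA of single embryos was sequenced with a 3′ kit (QuantSeq FWD with UMIs). Per the labels, the authors aligned reads with STAR to mm10 and counted them with HTSeq; versions are not given in the sources used here. The values are the deposited counts per gene, not normalized, for 47643 Ensembl genes, with symbols and gene types from GENCODE M21 (GRCm38). Here, diabetic and normal embryos were compared with edgeR's quasi-likelihood test (edgeR 4.0.16, R 4.3.3; TMM, filterByExpr with a minimum count of 10) and Benjamini-Hochberg adjustment, and genes with an adjusted p under 0.05 are called. The 34 embryos entered without covariates, and the fits with later embryos or yolk sacs had interaction terms. DESeq2 1.42.0 and limma 3.58.1 (voom, litter as a random block) served as alternatives. Single genes were also tested over litter means of log2(normalized count + 1) by two-sided exact permutation. For display, each count was divided by its library's DESeq2 size factor (normalized count). The p-values of the embryo fits take littermates as independent. The edgeR and limma fits were tested on simulated counts that held no litter effect and no difference in composition. How these bear on the p-values was therefore not tested there.

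The libraries, lists and named genes were chosen with earlier results of these data known. Named are the called protein-coding genes whose mean reached 20 normalized counts in either group and the same direction in litter sums, the 12 with the largest increase and the 12 with the largest decrease; genes called also with litter as a block; called list members; markers; and genes said to be picked out after their values were seen. Some genes are not reported here, and the counts and medians of the sterol list leave them out. A repeat library of 1 embryo was left out; it differed from the first by a median of 0.0804 on the log2 scale. Total counts of 1762872 to 5658850 set the precision, and counting error is part of each standard error.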

Additional observations from a re-analysis of the deposited data

Results flagged for a closer look

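For 14 genes named by rule and 4 chosen after their values were seen, the effect of maternal diabetes differed between embryos with 7–9 and with 5–6 somite pairs by an interaction term in edgeR. These genes were named for their change at the earlier stage, whose embryos also enter the test, so that a difference toward 0 is partly built into the choice. Library composition is given for the earlier embryos only, and its part in these differences was not tested. Among genes higher at the earlier stage, the log2 difference (later minus earlier) was -0.85 ± 0.25 (SE) for Prcc (adjusted p = 0.0268), -1.40 ± 0.35 for Spry4 (0.0119), -1.32 ± 0.32 for Wdr92 (0.00948), -1.16 ± 0.27 for Trp53 (0.00841), -0.96 ± 0.25 for Ednra (0.0159), -1.12 ± 0.24 for C2cd5 (0.00621), -0.62 ± 0.17 for Zkscan3 (0.0214) and -0.70 ± 0.23 for Mlx (0.0430). Of these, Spry4, Wdr92, Trp53, Ednra, C2cd5 and Mlx lay below 0 in the later embryos, at -0.40, -0.50, -0.49, -0.30, -0.47 and -0.18. Among genes lower at the earlier stage, the difference was 0.87 ± 0.20 for Dhrs4 (adjusted p = 0.00759), 0.77 ± 0.20 for Slc35f1 (0.0165), 0.95 ± 0.20 for Isoc2a (0.00533), 0.67 ± 0.20 for Unc45b (0.0297), 0.34 ± 0.11 for Sqle (0.0447) and 0.74 ± 0.17 for Ndufaf8 (0.00948). Sqle, at -0.15, was the 1 gene of these still below 0 in the later embryos. Of the genes chosen after their values were seen, the difference was -0.76 ± 0.15 for Kitl (adjusted p = 0.00510), -0.81 ± 0.18 for Slc6a6 (0.00739) and -0.42 ± 0.14 for Skp2 (0.0412), which lay at -0.31, -0.22 and -0.057 in the later embryos, and 0.61 ± 0.20 for Hhex (0.0426), which lay at 0.015 there. The test takes littermates as independent. All 18 differences were also called in limma with the litter as a random effect and with the title number as a factor in edgeR. The title number entered that fit as a shift shared by all groups. Such a fit cannot take up a change with diabetes that itself differs by title number, so it does not separate stage from title number. Without the litter D24M15, which gave 7 of the 16 later diabetic embryos, 12 were called, and Prcc (adjusted p = 0.05001), Slc35f1 (0.0584), Unc45b (0.0538), Mlx (0.0751), Hhex (0.0608) and Skp2 (0.0548) were not. Wdr92, Trp53, C2cd5, Dhrs4, Isoc2a, Ndufaf8, Kitl and Slc6a6 were called whichever of the 22 litters was left out. Sqle and Hhex lost the call in 14 of these fits, Mlx in 13, Skp2 in 12, Prcc in 6 and Unc45b in 5. Slc35f1 lost it without D24M15 or D28M53, Zkscan3 without D28M31 or N28M06, Spry4 without D28M53 and Ednra without D28M23.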

How the results depend on the processing

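The 161 calls (47 protein-coding higher, 92 lower, 5 of sterol synthesis) changed with the design. DESeq2, run without the filter on low counts, called 502 (125 protein-coding higher, 209 lower), and an edgeR fit without that filter called 291. The title number as a factor gave 448 (155 higher, 197 lower), and somite number and sex as covariates left 59 lower. Litter as a random block left 4 calls (2 higher, 2 lower, both of sterol synthesis). Counts summed per litter and embryos with 5 somite pairs only left 0 in edgeR for all 4 numbers, with 1170 and 1060 genes at an unadjusted p under 0.05. The following were chosen after seeing the data: the protein-coding share as a covariate left 5 (0 higher, 1 lower, 1 of sterol synthesis), the range of protein-coding share common to both groups left 0 for all 4 numbers, with 594 at an unadjusted p under 0.05, title number 28 alone gave 1753 (948 higher, 692 lower, 8 of sterol synthesis), and numbers 23 and 24 alone gave 8 (2 higher, 2 lower, 0 of sterol synthesis). A test of protein-coding genes only kept these numbers within 1.5 times. Leaving out 1 litter gave 4 to 675 calls, 1 to 296 higher, 2 to 314 lower and 2 to 7 of sterol synthesis, each lowest without N28M06 and highest without N24M21. The stage difference was called for 438 genes without the filter, against 984, for 2114 with the title number as a factor, and for 370 to 1480 when 1 litter was left out, the last 2 chosen after seeing the data. The causes were not tested.

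The 38 called named genes kept their direction in each alternative except numbers 23 and 24 alone, where Spry4 was -0.49, Cdt1 0.033 and Ndufaf8 0.065. Of sterol genes that were not called, Srebf2 was 0.44, Ebp 0.16 and Tm7sf2 0.011 there, and Ebp was 0.021 with 5 somite pairs only. No paired analysis was possible because diabetic and normal embryos share no dam. The number of litters, 9 and 10, limits what these data can show, more so for the 3 and 3 litters with title number 23 or 24.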
